A study of Arabidopsis thaliana with 9 samples.

Results

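The 10 genes described here encode enzymes of the general phenylpropanoid pathway and of the steps that lead from it to lignin. They are PAL1, PAL2, PAL3 and PAL4 (phenylalanine ammonia-lyases), C4H (cinnamate 4-hydroxylase), 4CL1 and 4CL2 (4-coumarate:CoA ligases), HCT (hydroxycinnamoyl-CoA shikimate/quinate hydroxycinnamoyl transferase), CCoAOMT1 (caffeoyl-CoA O-methyltransferase) and CCR1 (cinnamoyl-CoA reductase). They were taken by gene identifier for their place in the pathway and make up 10 of the 33655 features in the count table. All 10 passed the filter on low counts.

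RNA-seq libraries came from whole Arabidopsis thaliana seedlings of the mutant spaQ, the mutant cop1-4 and the wild type Col-0, with 3 libraries of each, and both mutants stand in the Col-0 background. All seedlings were dark-grown and 3 days old. Stratification lasted 3 days at 4 °C, followed by 3 h under white light, 21 h without light, a far-red treatment and a final 2 days of darkness. COP1 is a ubiquitin ligase that works with SPA proteins to keep light responses down in darkness. The allele cop1-4 is known as a weak COP1 allele, and spaQ usually denotes plants mutated in SPA1, SPA2, SPA3 and SPA4, although the labels do not list its alleles. Whether the replicates are separate sowings is not stated in the labels, so the p-values below reflect variation among libraries that may be purely technical.

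PAL removes ammonia from phenylalanine to give cinnamate, C4H hydroxylates cinnamate to p-coumarate, and 4CL couples p-coumarate to coenzyme A. The product, p-coumaroyl-CoA, is the branch point at which chalcone synthase draws carbon into flavonoids and HCT draws it towards lignin, where CCoAOMT1 adds a methyl group and CCR1 makes the aldehydes that become monolignols. In a seedling, lignin is laid down in xylem vessels and in the Casparian strip of the root endodermis, and the same pathway also supplies sinapate esters and flavonol glycosides.

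Library totals lay between 22482588 and 38770474 counted reads, and levels are given as CPM, a gene's reads relative to the library total after TMM scaling. The 10 genes together took 0.0930% to 0.104% of the reads in spaQ, 0.0779% to 0.0846% in cop1-4 and 0.182% to 0.196% in Col-0. With TMM scaling the median log2 fold change of all 20779 genes tested was -0.02 for spaQ against Col-0, 0.01 for cop1-4 against Col-0 and -0.01 for spaQ against cop1-4, whereas with library totals the same medians were -0.39, -0.31 and -0.07. Changes are therefore relative to the median gene. With library totals, 4760 genes were called higher and 11171 lower in spaQ than in Col-0, and 4080 higher and 10227 lower in cop1-4 than in Col-0, against 7386 and 7492 in spaQ and 6612 and 6297 in cop1-4 with TMM. COP1 transcripts had 75.1 to 83.2 CPM in spaQ, 29.1 to 35.7 CPM in cop1-4 and 29.7 to 34.9 CPM in Col-0, and with TMM scaling no SPA locus was called lower in spaQ than in Col-0. Neither mutant label could be checked from these counts, since mutant alleles can leave a counted transcript.

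The pathway did not move as one block in spaQ. Transcripts of PAL4, 4CL1, 4CL2, HCT, CCoAOMT1 and PAL1 fell relative to Col-0, those of PAL3, CCR1 and PAL2 rose, and C4H was not called. Calls required an adjusted p below 0.05 in edgeR's quasi-likelihood test (Benjamini-Hochberg, over all genes tested). Of the 10 genes, 9 were called, 3 higher and 6 lower, against 71.6% of all genes tested (35.5% higher and 36.1% lower). Libraries of spaQ and Col-0 did not overlap for 9 of the 10, against 75.4% of all genes. Of the 6 lower genes, 4 fell at least 2-fold, against 16.7% of all genes, and 1 of the higher genes, PAL3, rose at least 2-fold, against 16.9%. The median log2 fold change of the 10 was -0.67, or -1.05 with library totals. The share called was thus not far above the background of a comparison in which most genes differed.

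In cop1-4 most of the 10 genes were lower than in Col-0. PAL4, 4CL1, PAL1, 4CL2, HCT, CCoAOMT1 and C4H fell relative to Col-0, PAL3 and CCR1 rose, and PAL2 was not called. Here 2 genes were called higher and 7 lower, 9 of 10 in all, against 62.1% of all genes tested (31.8% higher and 30.3% lower). The libraries of cop1-4 and Col-0 did not overlap for 9 of 10 genes, against 65.7% of all genes. Of the lower genes, 6 fell at least 2-fold, against 11.7% of all genes, and PAL3 rose at least 2-fold, against 13.0%. The median log2 fold change of the 10 was -1.07. Both comparisons share the Col-0 libraries.

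Between the mutants, 7 of the 10 genes differed, against 47.5% of all genes tested (24.0% higher and 23.5% lower in spaQ). PAL1, PAL2 and C4H were higher in spaQ than in cop1-4, PAL4, 4CL1, 4CL2 and HCT were lower, and PAL3, CCoAOMT1 and CCR1 were not called. The libraries of spaQ and cop1-4 did not overlap for 9 of 10 genes, against 57.3% of all genes, and the median log2 fold change was 0.12, or 0.06 with library totals. Differences of at least 2-fold were 0 higher, against 4.04% of all genes, and 2 lower (PAL4 and 4CL2), against 5.85%. The plot of fold changes by gene shows PAL1, PAL2 and C4H to the right of 0 and PAL4, both ligase genes and HCT to the left in this comparison.

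**Figure D1:**
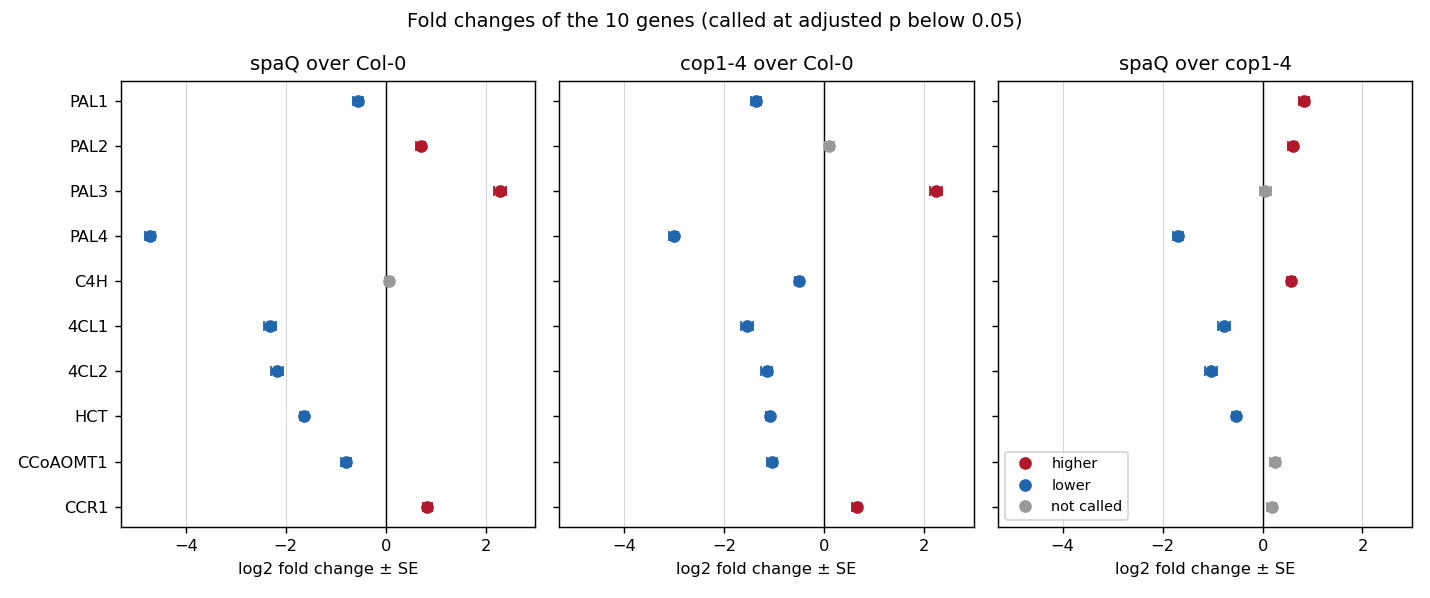
Log2 fold changes (x axis, TMM-scaled, with SE bars) of the 10 genes in pathway order (top to bottom) for spaQ over Col-0, cop1-4 over Col-0 and spaQ over cop1-4. Red points were called higher, blue points lower and grey points not called. PAL4 lies farthest to the left in each of the 3 panels, and PAL3 farthest to the right in both panels against Col-0.

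In these whole-seedling samples, fewer cells of a type and less RNA per cell cannot be told apart. Markers of lignifying tissue were also lower in each mutant than in Col-0. All 8 listed markers of xylem vessels and secondary walls (CESA4, CESA7, CESA8, XCP1, XCP2, IRX9, IRX10 and FLA11) were called lower in each mutant than in Col-0, against 36.1% of all genes called lower in spaQ and 30.3% in cop1-4. Their summed level was 93.4 to 99.5 CPM in spaQ, 176.1 to 194.8 CPM in cop1-4 and 349.8 to 368.8 CPM in Col-0, and none was at 0 in any library. The 2 endodermis markers tested, CASP1 and MYB36, were also lower in each mutant, with a summed level of 54.6 to 57.8 CPM in spaQ, 100.7 to 137.3 CPM in cop1-4 and 296.6 to 336.7 CPM in Col-0. The third, ESB1, had 51 reads over all libraries, was overlapped by another gene over 84.6% of its length and was not tested. Both marker sums ranked Col-0 above cop1-4 above spaQ, as did PAL4, 4CL1, 4CL2 and HCT. PAL1 and CCoAOMT1 were also lower in each mutant, but their means were higher in spaQ than in cop1-4. With TMM scaling C4H was called lower only in cop1-4. The part of these tissues in the lower levels of the 10 genes was not tested.

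The 4 PAL genes, whose enzymes open the pathway, went separate ways. PAL1 (AT2G37040, chr2:15557367-15560755 in TAIR10.1, minus strand) had 196.3, 234.5 and 184.7 CPM in spaQ, 110.4, 114.6 and 123.6 CPM in cop1-4, and 267.6, 316.1 and 318.7 CPM in Col-0. The 3 genotypes did not overlap, with cop1-4 lowest and spaQ between. PAL1 fell by 0.55 in spaQ (log2, SE 0.10, edgeR adjusted p = 0.000156) and by 1.37 in cop1-4 (SE 0.10, edgeR adjusted p = 1.21e-08), and was 0.82 higher in spaQ than in cop1-4 (SE 0.10, edgeR adjusted p = 1.14e-05). With library totals the value in spaQ was -0.92.

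PAL2 (AT3G53260, chr3:19744018-19747114, minus strand) is the closest relative of PAL1 among the 4, with 84.0% identical bases over the aligned coding sequences. It had 247.3, 253.8 and 254.5 CPM in spaQ, 187.0, 155.5 and 157.2 CPM in cop1-4, and 141.3, 166.3 and 158.9 CPM in Col-0. All spaQ libraries lay above all others, while those of cop1-4 and Col-0 overlapped. PAL2 rose by 0.70 in spaQ relative to Col-0 (log2, SE 0.09, edgeR adjusted p = 4.98e-06), or by 0.32 with library totals, and was 0.60 higher in spaQ than in cop1-4 (SE 0.09, edgeR adjusted p = 7.49e-05). In cop1-4 its log2 fold change was 0.10 (SE 0.09, edgeR adjusted p = 0.356), with an approximate 95% interval of -0.08 to 0.28 under TMM scaling. With library totals that value was -0.22 and was called lower.

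PAL3 (AT5G04230, chr5:1160569-1163957, plus strand) had 23.8, 24.2 and 22.3 CPM in spaQ, 26.3, 21.0 and 20.4 CPM in cop1-4, and 4.29, 5.47 and 4.64 CPM in Col-0. Both mutants lay far above Col-0 and overlapped each other. Relative to Col-0, PAL3 was 4.89-fold higher in spaQ (log2 fold change 2.29, SE 0.12, edgeR adjusted p = 1.02e-10) and 4.72-fold higher in cop1-4 (log2 fold change 2.24, SE 0.12, edgeR adjusted p = 2.51e-10). The Col-0 values rest on 153 to 176 reads per library. The difference between the mutants was 0.05 (log2, edgeR adjusted p = 0.723), with an approximate 95% interval of -0.16 to 0.26.

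PAL4 (AT3G10340, chr3:3203988-3208135, plus strand) moved the other way and further than any other of the 10. It had 4.97, 5.36 and 5.78 CPM in spaQ, 17.5, 16.6 and 18.5 CPM in cop1-4, and 126.9, 144.5 and 150.1 CPM in Col-0. No library of one genotype came near those of another. PAL4 was 26.2-fold lower in spaQ than in Col-0 (log2 fold change -4.71, SE 0.10, edgeR adjusted p = 1.21e-14) and 8.03-fold lower in cop1-4 than in Col-0 (log2 fold change -3.01, SE 0.09, edgeR adjusted p = 4.21e-13). In spaQ it was 3.26-fold lower than in cop1-4 (log2 fold change -1.70, SE 0.10, edgeR adjusted p = 8.53e-09). The spaQ values rest on 136 to 188 reads per library, against 4650 to 4948 in Col-0.

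**Figure D2:**
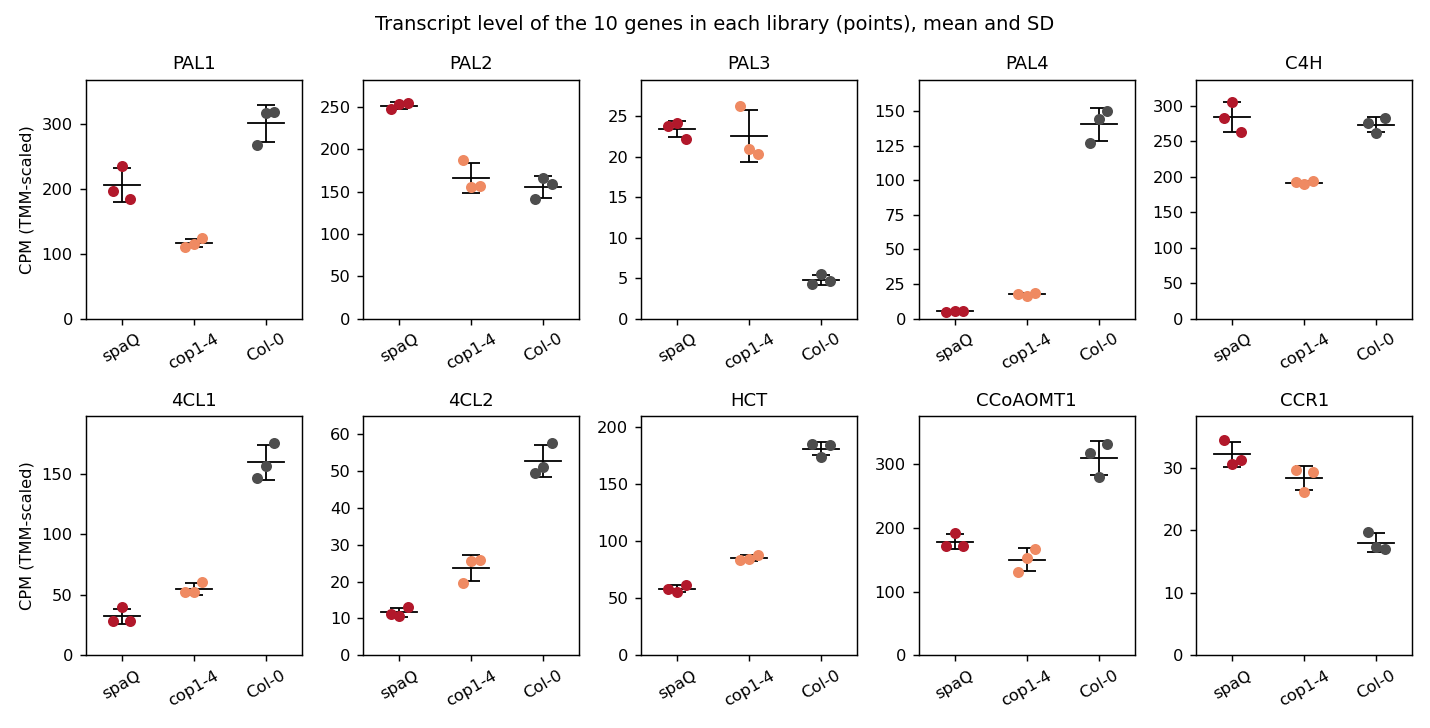
Level of each of the 10 genes in CPM (y axis, linear from 0, TMM-scaled) in every library of spaQ, cop1-4 and Col-0 (points, n = 3 each), with the mean (wide bar) and SD (capped bars). PAL4 stands at 4.97 to 5.78 CPM in spaQ and 126.9 to 150.1 CPM in Col-0, while PAL3 stands at 22.3 to 24.2 CPM in spaQ and 4.29 to 5.47 CPM in Col-0.

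With PAL3 and PAL4 moving in opposite directions, the make-up of the PAL transcript pool was followed as the share of each gene. Measured as counts per coding length, PAL4 made up 1.13% ± 0.114 of the pool in spaQ, 5.52% ± 0.341 in cop1-4 and 23.7% ± 0.462 in Col-0 (SD, n = 3 each). PAL3 made up 4.97% ± 0.189 in spaQ, 7.16% ± 0.690 in cop1-4 and 0.821% ± 0.0676 in Col-0. PAL3, the scarcest PAL transcript in Col-0, thus stood above PAL4 in both mutants.

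PAL1 led the pool in Col-0 and PAL2 led it in the mutants. The share of PAL2 was 52.1% ± 2.74 in spaQ, 51.6% ± 2.92 in cop1-4 and 25.9% ± 0.635 in Col-0 (SD, n = 3 each). PAL1 held 41.8% ± 2.91 in spaQ, 35.7% ± 3.30 in cop1-4 and 49.5% ± 0.422 in Col-0. Of the 12 comparisons of PAL shares, 11 had no overlap between libraries and gave a two-sided exact permutation p of 0.1, the smallest that 3 against 3 can give (0.125 adjusted over 15 tests). The exception was the PAL2 share between spaQ and cop1-4, whose libraries overlapped (difference 0.526 percentage points, exact permutation p = 1.0).

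The summed level of the pool was highest in Col-0 and lowest in cop1-4. The 4 genes together had 485.8 ± 27.9 CPM in spaQ, 322.8 ± 16.9 CPM in cop1-4 and 601.6 ± 53.3 CPM in Col-0 (SD, n = 3 each). The 3 genotypes did not overlap in this sum. The longest stretch of identical coding bases shared by PAL1 and PAL2 was 80, so some short reads could have been assigned to either, and the read length is not given in the sources used here. For PAL3 and PAL4, which had 78.9% identical bases, that stretch was 26.

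**Figure D3:**
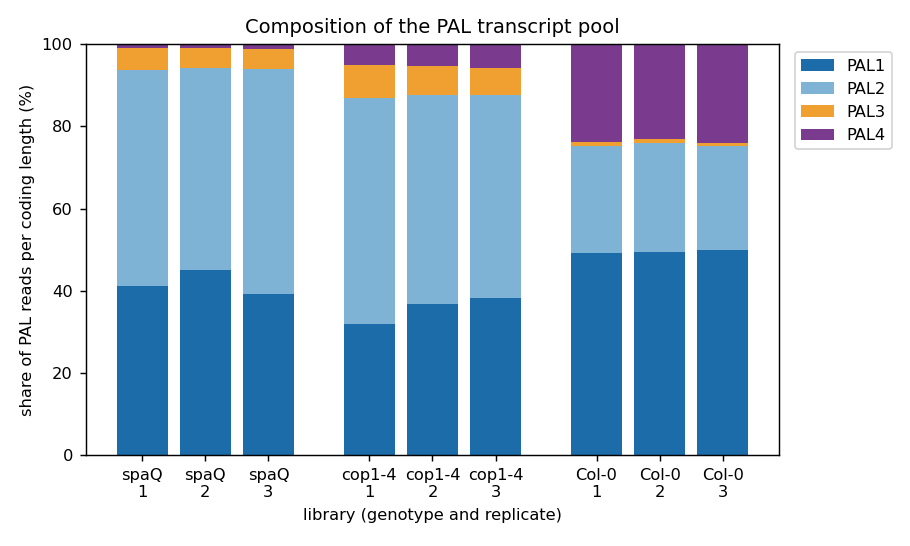
Share of each PAL gene (y axis, percent of PAL counts per coding length) in every library of spaQ, cop1-4 and Col-0 (1 bar per library). PAL4 takes 23.2% to 24.1% of the Col-0 bars and 1.05% to 1.26% of the spaQ bars, and PAL2 takes 49.2% to 54.6% of the spaQ bars and 25.2% to 26.4% of the Col-0 bars.

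Because PAL3 and PAL4 moved in opposite directions, the 300 bases before their annotated starts are shown side by side. They are RefSeq sequences of TAIR10.1, written 5' to 3' on the gene's strand, for PAL3 at chr5:1160269-1160568, plus strand, and for PAL4 at chr3:3203688-3203987, plus strand. Capitals mark the G-box CACGTG, a motif that basic helix-loop-helix and bZIP light-signalling factors are known to bind.
PAL3: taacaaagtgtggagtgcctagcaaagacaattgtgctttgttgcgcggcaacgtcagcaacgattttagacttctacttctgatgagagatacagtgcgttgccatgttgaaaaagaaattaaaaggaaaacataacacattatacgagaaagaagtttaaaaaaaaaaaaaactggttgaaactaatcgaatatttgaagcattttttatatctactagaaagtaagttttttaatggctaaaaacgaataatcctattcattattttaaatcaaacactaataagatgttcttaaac
PAL4: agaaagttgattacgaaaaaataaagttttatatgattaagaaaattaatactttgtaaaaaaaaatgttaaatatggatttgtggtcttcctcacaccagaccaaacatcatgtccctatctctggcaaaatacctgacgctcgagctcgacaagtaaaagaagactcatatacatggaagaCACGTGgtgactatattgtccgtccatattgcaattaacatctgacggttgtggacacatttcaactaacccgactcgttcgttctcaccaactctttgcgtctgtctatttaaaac
The PAL4 window held a G-box 117 bases before the start, and the windows of the other 9 genes held none. Across 27443 gene promoters of the same length, 7.09% held CACGTG, which reads the same on both strands. A match of letters is not a measured binding site.

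C4H (AT2G30490, chr2:12993625-12996012, minus strand), the cytochrome P450 that follows PAL, had 282.6, 305.8 and 263.5 CPM in spaQ, 191.8, 189.1 and 193.7 CPM in cop1-4, and 275.4, 261.4 and 282.6 CPM in Col-0. The spaQ and Col-0 libraries overlapped, and all cop1-4 libraries lay below both. C4H fell by 0.51 in cop1-4 relative to Col-0 (log2, SE 0.08, edgeR adjusted p = 4.01e-05), and its level was 0.57 higher in spaQ than in cop1-4 (SE 0.08, edgeR adjusted p = 3.3e-05). In spaQ against Col-0 its log2 fold change was 0.06 (SE 0.08, edgeR adjusted p = 0.534), with an approximate 95% interval of -0.10 to 0.21. With library totals this value was -0.32 and was called lower, and that in cop1-4 was -0.83.

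The genes for electron donors of the pathway's P450 enzymes were near the median gene. ATR1 and ATR2, the P450 reductases, and CB5D, a cytochrome b5 known to serve syringyl lignin synthesis, were not called in cop1-4 (log2 fold changes 0.17, 0.09 and 0.05; edgeR adjusted p = 0.098, 0.306 and 0.661). With library totals all 3 of these values turned negative (-0.15, -0.22 and -0.27), and ATR2 and CB5D were called lower. Without Col-0 replicate 2, ATR1 was called higher in cop1-4 (0.24) and CB5D came to -0.00. In spaQ, ATR1 fell by 0.29 and CB5D by 0.31, while ATR2 rose by 0.25, a value that turned to -0.13 with library totals, with which ATR1 came to -0.66 and CB5D to -0.68. CB5D is overlapped by other genes over 43.3% of its length, so its counts are uncertain.

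4CL1 (AT1G51680, chr1:19158746-19161737, minus strand) had 28.4, 39.5 and 28.3 CPM in spaQ, 52.0, 52.3 and 60.4 CPM in cop1-4, and 146.7, 156.4 and 175.3 CPM in Col-0. The 3 genotypes did not overlap, and spaQ was lowest. 4CL1 was 4.96-fold lower in spaQ than in Col-0 (log2 fold change -2.31, SE 0.12, edgeR adjusted p = 1.39e-10) and 2.91-fold lower in cop1-4 than in Col-0 (log2 fold change -1.54, SE 0.12, edgeR adjusted p = 2.14e-08). In spaQ it was 0.77 lower than in cop1-4 on the log2 scale (-0.77, SE 0.12, edgeR adjusted p = 0.000115).

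4CL2 (AT3G21240, chr3:7454269-7457404, minus strand) had 11.3, 10.7 and 13.1 CPM in spaQ, 19.7, 25.6 and 25.98 CPM in cop1-4, and 49.5, 51.1 and 57.7 CPM in Col-0. It kept the same order of genotypes as 4CL1, again without overlap. 4CL2 was 4.53-fold lower in spaQ than in Col-0 (log2 fold change -2.18, SE 0.12, edgeR adjusted p = 1.12e-10) and 2.22-fold lower in cop1-4 than in Col-0 (log2 fold change -1.15, SE 0.11, edgeR adjusted p = 2.08e-07), and differed between spaQ and cop1-4 by -1.03 (SE 0.12, edgeR adjusted p = 5.34e-06).

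In the pair of ligases, 4CL1 was the larger part in every library. It held 72.7% ± 5.32 of the pair's counts per coding length in spaQ, 69.6% ± 2.71 in cop1-4 and 74.96% ± 0.322 in Col-0 (SD, n = 3 each). Libraries overlapped between spaQ and Col-0 (exact permutation p = 0.6) and between spaQ and cop1-4 (exact permutation p = 0.5), but not between cop1-4 and Col-0 (exact permutation p = 0.1, the smallest possible). The summed level of the pair was 43.8 ± 5.63 CPM in spaQ, 78.7 ± 7.35 CPM in cop1-4 and 212.2 ± 18.9 CPM in Col-0. The coding sequences of 4CL1 and 4CL2 share 81.6% of aligned bases, with a longest identical stretch of 35.

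HCT (AT5G48930, chr5:19836299-19838235, minus strand), the acyltransferase at the entrance to the lignin branch, had 58.0, 55.4 and 61.6 CPM in spaQ, 83.0, 84.0 and 87.9 CPM in cop1-4, and 184.7, 174.0 and 184.3 CPM in Col-0. The 3 genotypes were well apart, in the order seen for PAL4 and the ligases. HCT was 3.1-fold lower in spaQ than in Col-0 (log2 fold change -1.63, SE 0.08, edgeR adjusted p = 2.27e-11), 2.13-fold lower in cop1-4 than in Col-0 (log2 fold change -1.09, SE 0.07, edgeR adjusted p = 4.16e-09), and lower in spaQ than in cop1-4 (log2 fold change -0.54, SE 0.08, edgeR adjusted p = 3.21e-05).

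CCoAOMT1 (AT4G34050, chr4:16310409-16312308, plus strand), which methylates caffeoyl-CoA, had 172.2, 191.5 and 171.5 CPM in spaQ, 131.1, 153.2 and 166.8 CPM in cop1-4, and 317.8, 279.6 and 332.3 CPM in Col-0. Both mutants lay below Col-0, and cop1-4 lay below spaQ by a small gap. CCoAOMT1 fell by 0.80 in spaQ (log2, SE 0.10, edgeR adjusted p = 3.08e-06) and by 1.04 in cop1-4 (SE 0.10, edgeR adjusted p = 2.23e-07). The difference between spaQ and cop1-4 was 0.25 (SE 0.10, edgeR adjusted p = 0.0524), with an approximate 95% interval of 0.05 to 0.44. It passed the threshold in DESeq2 (adjusted p = 0.0301), without the filter on low counts (edgeR adjusted p = 0.0455), with spaQ and cop1-4 fitted alone (edgeR adjusted p = 0.0461), without cop1-4 replicate 3 (log2 fold change 0.33, edgeR adjusted p = 0.0234) and without Col-0 replicate 2 (edgeR adjusted p = 0.0361).

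CCR1 (AT1G15950, chr1:5478603-5482180, plus strand), the reductase that commits feruloyl-CoA to monolignols, was the 1 lignin-branch gene among the 10 that rose. It had 34.5, 30.7 and 31.2 CPM in spaQ, 29.6, 26.1 and 29.3 CPM in cop1-4, and 19.7, 17.4 and 17.0 CPM in Col-0. Both mutants lay above Col-0. CCR1 rose by 0.83 in spaQ (log2, SE 0.09, edgeR adjusted p = 5.12e-07) and by 0.65 in cop1-4 (SE 0.09, edgeR adjusted p = 1.23e-05), with a difference of 0.18 between spaQ and cop1-4 (SE 0.09, edgeR adjusted p = 0.102; approximate 95% interval 0.01 to 0.35). With library totals CCR1 was still called higher, by 0.46 in spaQ and by 0.33 in cop1-4.

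The CCR1 counts are uncertain, because 2 annotated genes on the opposite strand, AT1G05213 and AT1G15960, cover 81.2% of its length and whether reads were counted by strand is not given in the sources used here. AT1G05213 averaged 2.40 CPM in spaQ, 1.89 CPM in cop1-4 and 1.22 CPM in Col-0. AT1G15960 averaged 6.29 CPM in spaQ, 3.83 CPM in cop1-4 and 2.05 CPM in Col-0. Both were thus counted at levels below CCR1 and ranked the genotypes as CCR1 did, and their part in the CCR1 result was not tested.

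HCT and CCoAOMT1, which encode enzymes of the lignin branch and fell in both mutants, carry AC elements before their starts, and these 300-base windows are shown to place them. AC elements are motifs known to be bound by R2R3-MYB activators and repressors of lignin genes. The windows are RefSeq sequence of TAIR10.1, 5' to 3' on the gene's strand, for HCT at chr5:19838236-19838535, minus strand, and for CCoAOMT1 at chr4:16310109-16310408, plus strand, with the AC element in capitals.
HCT: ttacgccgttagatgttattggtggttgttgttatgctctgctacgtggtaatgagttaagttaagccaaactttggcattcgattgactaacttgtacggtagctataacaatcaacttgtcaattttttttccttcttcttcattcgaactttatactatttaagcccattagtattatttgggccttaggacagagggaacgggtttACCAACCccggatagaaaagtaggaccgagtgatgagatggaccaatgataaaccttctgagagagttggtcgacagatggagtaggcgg
CCoAOMT1: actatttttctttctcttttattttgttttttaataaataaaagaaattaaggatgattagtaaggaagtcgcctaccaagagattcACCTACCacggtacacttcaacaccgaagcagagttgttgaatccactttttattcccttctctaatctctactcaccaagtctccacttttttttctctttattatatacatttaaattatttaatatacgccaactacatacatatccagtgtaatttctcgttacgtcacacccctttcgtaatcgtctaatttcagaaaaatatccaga
The motifs searched on both strands were ACCTACC, found in 1.33% of 27443 promoters, ACCAACC in 3.18% and ACCTAAC in 2.93%. ACCAACC occurred in HCT 90 bases before the start, in 4CL2 140 and 31 bases before it, and in CCR1 14 bases before it. The 4CL2 window overlaps the annotated gene AT3G21250, and the CCR1 window overlaps AT1G15940. ACCTACC occurred in CCoAOMT1 213 bases before the start, and ACCTAAC in none of the 10. At least 1 of the 3 occurred in 4 of the 10 windows, against 7.16% of all promoters. These 4 genes did not share a direction, since 4CL2, HCT and CCoAOMT1 fell in both mutants while CCR1 rose.

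Per kilobase of exon, the ranking of the 10 genes also differed between genotypes. In spaQ the highest level per kilobase was that of C4H (136.3 ± 10.2 CPM per kb), followed by CCoAOMT1 (115.1 ± 7.32), PAL2 (87.2 ± 1.36) and PAL1 (70.0 ± 8.89). In cop1-4 the order was CCoAOMT1 (97.0 ± 11.7 CPM per kb), C4H (91.9 ± 1.12), PAL2 (57.7 ± 6.13) and HCT (47.2 ± 1.43). In Col-0 it was CCoAOMT1 (199.9 ± 17.6 CPM per kb), C4H (131.1 ± 5.18), PAL1 (102.6 ± 9.82) and HCT (100.6 ± 3.36), all SD with n = 3. C4H and CCoAOMT1 did not differ beyond their spread in cop1-4, nor did PAL1 and HCT in Col-0. PAL4, at 51.6 ± 4.44 CPM per kb in Col-0, was exceeded there by 8.92% of genes, and in spaQ, at 1.97 ± 0.150 CPM per kb, by 75.4%.

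Across the 9 libraries, PAL4, 4CL1, 4CL2 and HCT followed one another closely, with a Pearson r of 0.97 to 1.0 of log2 CPM over their 6 pairs. The libraries share genotype and the genes were set side by side because all ranked Col-0 above cop1-4 above spaQ, so this is a description of the genotype pattern. After each genotype's mean was removed, r over the same pairs ranged from -0.35 to 0.67. The other rankings were Col-0 above spaQ above cop1-4 for PAL1 and CCoAOMT1, and spaQ above cop1-4 above Col-0 for PAL2, PAL3 and CCR1, of which the lower pair of PAL2 and the upper pair of PAL3 overlapped. C4H ranked spaQ above Col-0 above cop1-4, and its upper pair overlapped.

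PAL1 and C4H had levels in spaQ closer to Col-0 than those in cop1-4. The same held for the means of CCoAOMT1, whose difference between the mutants was not called. For PAL1 and C4H, the most similar genes across the 9 libraries were sought among the 16980 tested genes whose mean log2 CPM reached 1. For PAL1 these were BAG1 (Pearson r 0.990), FAAH (0.989) and AT3G23300 (0.988). BAG1 averaged 95.9 CPM in spaQ, 70.3 CPM in cop1-4 and 118.7 CPM in Col-0. For C4H they were UTR3 (Pearson r 0.988), ATB2 (0.985) and AT1G09250 (0.982), and ATB2 averaged 130.6 CPM in spaQ, 84.1 CPM in cop1-4 and 129.3 CPM in Col-0. The points share libraries and genotypes, and these are the highest values among all genes compared.

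The rest of the lignin pathway was read from lists written with earlier results of these data known, so their counts are descriptions. Of 13 tested genes for other lignin enzymes, 6 were higher, 6 lower and 1 not called in spaQ relative to Col-0 (median log2 fold change 0.02), and 5 were higher, 6 lower and 2 not called in cop1-4 (median 0.15). Of all genes tested, 35.5% were higher and 36.1% lower in spaQ, and 31.8% higher and 30.3% lower in cop1-4. With library totals the split of the list was 6 higher and 7 lower in spaQ and 3 higher and 6 lower in cop1-4, and both medians turned negative, to -0.35 in spaQ and -0.16 in cop1-4. CAD8, a cinnamyl alcohol dehydrogenase homologue, was listed at 0 in every library.

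Within that list, F5H1 (ferulate 5-hydroxylase, the enzyme that opens the syringyl branch) had 86.8 ± 9.19 CPM in spaQ, 20.8 ± 0.890 CPM in cop1-4 and 7.65 ± 0.866 CPM in Col-0 (SD, n = 3 each). It rose by 3.51 in spaQ and by 1.45 in cop1-4 (log2, edgeR adjusted p = 1.71e-13 and 7.68e-09). CAD7 had 33.8 ± 1.62 CPM in spaQ, 9.93 ± 2.12 CPM in cop1-4 and 0.873 ± 0.110 CPM in Col-0, with log2 fold changes of 5.26 and 3.50 for spaQ and cop1-4 against Col-0. CAD5, a main lignin cinnamyl alcohol dehydrogenase, went the other way, with 25.4 ± 0.583 CPM in spaQ, 41.3 ± 5.71 CPM in cop1-4 and 111.0 ± 7.92 CPM in Col-0 (log2 fold changes -2.13 and -1.43).

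Ligase and dehydrogenase isoforms also split. 4CL3, an isoform known for its role in flavonoid synthesis, had 38.2 ± 4.99 CPM in spaQ, 4.47 ± 1.29 CPM in cop1-4 and 2.77 ± 0.800 CPM in Col-0 (SD, n = 3 each). It rose by 3.78 in spaQ relative to Col-0 and was 3.07 higher in spaQ than in cop1-4 (log2, edgeR adjusted p = 7.76e-11 and 1.11e-08), opposite in direction to 4CL1 and 4CL2 in both of these comparisons. CAD9 fell by 1.32 in cop1-4 relative to Col-0. CAD4, unlike CAD5, rose by 1.31 in spaQ and by 0.40 in cop1-4 relative to Col-0. With library totals the CAD4 value in cop1-4 was 0.08 and was not called. CAD4 was also 0.91 higher in spaQ than in cop1-4.

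Of 7 genes for lignin polymerisation, the laccases and peroxidases that couple monolignols in the wall, 5 were lower, 1 higher and 1 not called in spaQ (median log2 fold change -2.29), and 6 were lower, 0 higher and 1 not called in cop1-4 (median -0.85). Of all genes tested, 36.1% were lower in spaQ and 30.3% in cop1-4. The 8 xylem and wall markers had medians of -1.93 in spaQ and -0.97 in cop1-4, and their part in the polymerisation result was not tested. PRX64, a peroxidase of the Casparian strip, had 31.8 ± 2.30 CPM in spaQ, 61.0 ± 5.33 CPM in cop1-4 and 191.3 ± 12.9 CPM in Col-0 (SD, n = 3 each), with log2 fold changes of -2.59 and -1.65. LAC11 had log2 fold changes of -2.60 in spaQ and -1.19 in cop1-4, and PRX72 had -2.45 in spaQ and -1.31 in cop1-4. LAC17 fell by 2.29 in spaQ and by 0.85 in cop1-4, but it is overlapped by other genes over 97.4% of its length. Between the mutants, LAC4 was lower in spaQ (log2 fold change -1.24).

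The 1 polymerisation gene that was higher in spaQ was PRX71, named here after its values were seen. It had 398.8, 859.8 and 420.3 CPM in spaQ, 128.8, 185.2 and 195.7 CPM in cop1-4, and 297.1, 276.8 and 303.8 CPM in Col-0. One spaQ library, replicate 2, stood far above the other two. The log2 fold change in spaQ was 0.94 (SE 0.23, edgeR adjusted p = 0.00182) with that library and 0.49 without it (edgeR adjusted p = 0.0059), and 0.56 with library totals.

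Upstream of PAL, more genes for the supply of phenylalanine were called higher than lower in spaQ with TMM scaling, while with library totals their median lay near 0. Of 13 tested genes for the shikimate and phenylalanine steps, 9 were higher, 3 lower and 1 not called in spaQ relative to Col-0 (median log2 fold change 0.42), and 6 were higher, 6 lower and 1 not called in cop1-4 (median 0.18). In cop1-4 the calls of DHS1 (0.18, edgeR adjusted p = 0.0417) and ADT3 (-0.22, edgeR adjusted p = 0.0494) lay near the threshold. Both were lost without the filter on low counts, with the replicate number as a block, and under several other alternatives. The shares of all genes called higher were 35.5% in spaQ and 31.8% in cop1-4, and those called lower were 36.1% and 30.3%. With library totals the split of the list was 6 higher and 4 lower in spaQ, with a median of 0.05, and 3 higher and 6 lower in cop1-4, where the median turned to -0.14. Between the mutants, 10 were higher in spaQ and 0 lower, against 24.0% and 23.5% of all genes, and these counts were the same with library totals.

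ADT4, an arogenate dehydratase that makes phenylalanine, had 65.8 ± 3.61 CPM in spaQ, 30.2 ± 2.83 CPM in cop1-4 and 13.2 ± 0.362 CPM in Col-0 (SD, n = 3 each), with log2 fold changes of 2.32 and 1.19 for spaQ and cop1-4 against Col-0. DHS2, which encodes the first enzyme of the shikimate pathway, rose by 1.76 and 1.22. CM1, a chorismate mutase, rose by 1.76 in spaQ and was 1.38 higher in spaQ than in cop1-4. ADT1 rose by 1.73 in spaQ, and DHS1 was 0.77 higher in spaQ than in cop1-4. DHS3 fell in both mutants (log2 fold changes -0.60 in spaQ and -0.97 in cop1-4), as did ADT5 (-1.01 in spaQ and -0.92 in cop1-4). ADT6 was listed at 0, and another gene overlaps 95.7% of it.

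Regulators of the pathway were mostly lower. Of 14 tested, 0 were higher, 11 lower and 3 not called in spaQ (median log2 fold change -1.19), and 2 were higher, 11 lower and 1 not called in cop1-4 (median -1.11). This stands against 36.1% of all genes called lower in spaQ and 30.3% in cop1-4. The list mixes repressors, vessel switches and F-box genes, so its counts give no single direction for the pathway. The xylem and wall markers were also lower in each mutant, and their part in these counts was not tested. MED5a, named here after its values were seen, was called lower in cop1-4 (-0.36, edgeR adjusted p = 0.0452). Its libraries overlapped those of Col-0, and several alternatives lost the call. MYB7, a repressor related to MYB4, had 13.3 ± 0.564 CPM in spaQ, 18.8 ± 2.52 CPM in cop1-4 and 36.4 ± 2.43 CPM in Col-0 (SD, n = 3 each), with log2 fold changes of -1.46 and -0.96. MYB4, a repressor of C4H known from this species, had 20.4 ± 0.983 CPM in spaQ, 12.1 ± 2.12 CPM in cop1-4 and 28.2 ± 2.32 CPM in Col-0. It fell by 1.23 in cop1-4 relative to Col-0 and was 0.76 higher in spaQ than in cop1-4, the same order of genotypes as PAL1.

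Several other listed regulators stood at low levels or had few or no reads. VND6, a switch for vessel identity, had log2 fold changes of -2.14 in spaQ and -2.02 in cop1-4, with 0.416 ± 0.192 CPM in spaQ, 0.467 ± 0.0855 CPM in cop1-4 and 1.89 ± 0.277 CPM in Col-0 (SD, n = 3 each). VND7 and MYB63 fell by 2.20 and 2.21 in spaQ. NST2, SND1, MYB58 and KFB39 were listed at 0 in every library and NST1 had 9 reads in all, and of these MYB58 and KFB39 are overlapped over their whole length by other genes.

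The kelch-repeat F-box protein KFB20, one of a group known to mark PAL enzymes for breakdown, had 135.2 ± 13.6 CPM in spaQ, 280.9 ± 16.5 CPM in cop1-4 and 125.8 ± 2.44 CPM in Col-0 (SD, n = 3 each). It rose by 1.16 in cop1-4 relative to Col-0 (log2, SE 0.09, edgeR adjusted p = 1.21e-08). In spaQ its log2 fold change against Col-0 was 0.10 (edgeR adjusted p = 0.292), but with library totals this value turned to -0.27 and was called lower (edgeR adjusted p = 0.011). KFB20 was lower in spaQ than in cop1-4 (-1.06, edgeR adjusted p = 2.09e-07). KFB50 was also lower in spaQ than in cop1-4 (-0.76) and rose by 1.24 in cop1-4 relative to Col-0, but other genes overlap 97.7% of it. KFB01, another F-box gene of the list, is named here after its values were seen. It was lower than in Col-0 in cop1-4 (-0.37, edgeR adjusted p = 0.000413) and in spaQ (-0.29, edgeR adjusted p = 0.00195).

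Enzymes listed for the flavonoid and sinapate ester branches (CHS, CHI, F3H, REF1, UGT84A2 and SNG1) were mostly higher. Of 6 listed, 5 were higher and 1 lower in spaQ (median log2 fold change 3.18), and 4 were higher, 1 lower and 1 not called in cop1-4 (median 1.60). Among all genes tested, 35.5% were called higher in spaQ and 31.8% in cop1-4. CHS, chalcone synthase, rose by 4.78 in spaQ and by 1.19 in cop1-4 relative to Col-0. CHI, chalcone isomerase, rose by 4.55 in spaQ and by 2.00 in cop1-4. SNG1, which makes sinapoylmalate, had 546.0 ± 28.0 CPM in spaQ, 773.5 ± 27.7 CPM in cop1-4 and 156.1 ± 4.03 CPM in Col-0 (SD, n = 3 each). UGT84A2, a sinapate glucosyltransferase, was 1.90 higher in spaQ than in cop1-4. REF1, an aldehyde dehydrogenase that makes ferulate and sinapate, fell by 0.51 in cop1-4, or by 0.82 with library totals. With library totals the split of the list was 5 higher and 1 lower in spaQ, and 4 higher and 2 lower in cop1-4. UGT84A2 was then called lower in cop1-4 (log2 fold change -0.43). F3H, counted among the higher genes, is overlapped by another gene over 94.5% of its length, so its counts are uncertain. It also stood near 0 in Col-0 (0.209, 0.0622 and 0.000 CPM). Its log2 fold change in cop1-4 moved from 2.55 to 4.07 without Col-0 replicate 1.

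**Figure D4:**
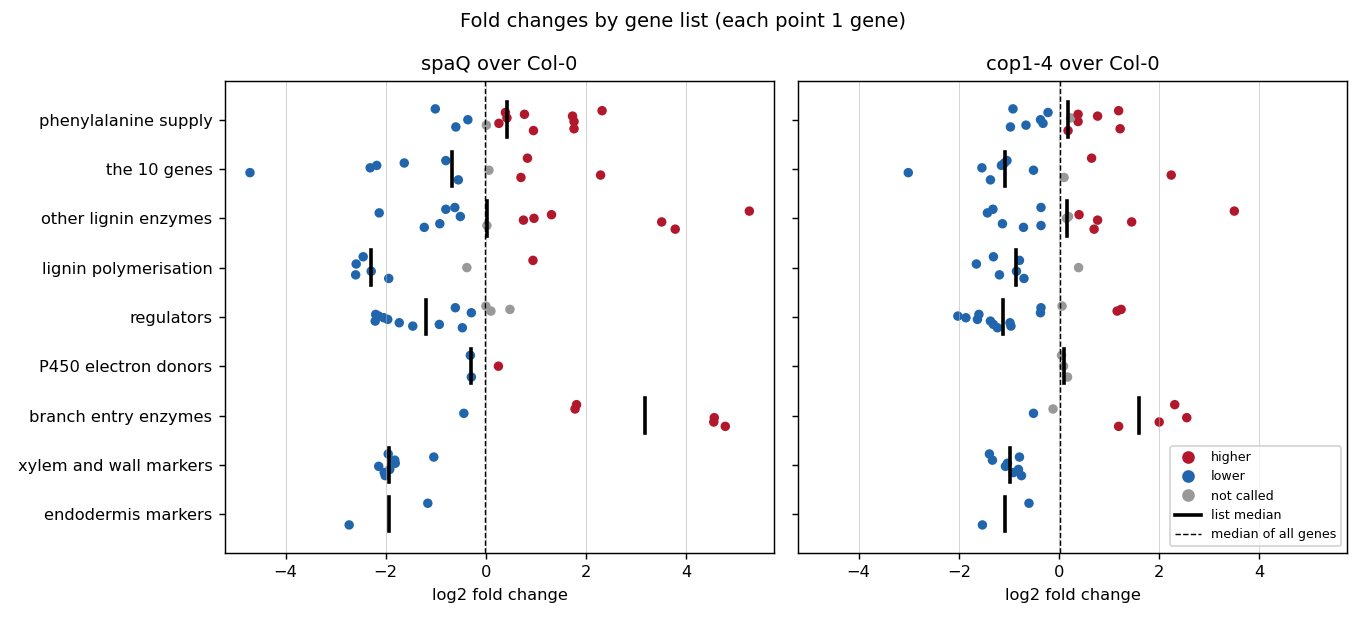
Log2 fold changes (x axis, TMM-scaled) of the 10 genes and of the other lists (rows, each point 1 tested gene) for spaQ over Col-0 and cop1-4 over Col-0, with the median of each list (thick bar) and of all genes tested (dashed line). The medians of the 10 genes are -0.67 in spaQ and -1.07 in cop1-4, and those of xylem and wall markers -1.93 and -0.97. Those of the row of branch entry enzymes, which holds flavonoid and sinapate ester enzymes, are 3.18 and 1.60.

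The authors' deposited tables of genes regulated in the mutants, relative to the wild type, list 7261 genes for spaQ and 5249 for cop1-4. The authors' deposited table for spaQ lists 5 of the 10 genes, PAL3, PAL4, 4CL1, 4CL2 and HCT, with a log2 fold change of -4.71 for PAL4. The authors' deposited table for cop1-4 lists 7 of the 10, these 5 and also PAL1 and CCoAOMT1, with -3.03 for PAL4. The remaining genes called here without being listed in those tables were PAL1, PAL2, CCoAOMT1 and CCR1 in spaQ and C4H and CCR1 in cop1-4, all with an absolute log2 fold change below 1.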

How the data were processed

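RNA was sequenced from 9 libraries of dark-grown seedlings. The authors deposited raw read counts per gene, with build TAIR10 per the submitters' processing notes. Those notes list Bowtie2, FastQC, HTSeq, TopHat and DESeq2 without roles, and versions and strand setting were not given in the sources used here. For each mutant the authors further deposited a table of regulated genes giving a log2 fold change and an FDR p-value, used only where named.

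The deposited counts were filtered with filterByExpr, scaled with TMM and fitted to all 9 libraries by genotype (edgeR 4.0.16 quasi-likelihood test, R 4.3.3, 6 residual degrees of freedom). The fit was tested on simulated counts in which 200 genes were changed in cop1-4. Far more genes were called in the real data, and the fit was not tested under so broad a change. Genes with a Benjamini-Hochberg adjusted p below 0.05 over 20779 genes were called, and 2-fold calls also needed an absolute log2 fold change of 1. SEs were derived from each fold change and its F statistic, and approximate intervals span 1.96 SE on either side. Log2 CPM used a prior count of 2. Shares were compared with two-sided exact permutation tests, adjusted over 15 tests. Each library counted as 1 replicate. Replicate pairs differed by more than sampling noise (chi-square per degree of freedom 3.27 to 20.4), which cannot show whether they are separate sowings.

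Alternatives were DESeq2 1.42.0, library totals, no filter, pairs of genotypes fitted alone, the replicate number as a block, and each library left out. For shares, plain counts were tried. Gene names, lengths, overlaps and promoter windows came from the RefSeq annotation of TAIR10.1, in which all 10 genes were found.

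The genes and lists were chosen with earlier results of these data known. All 10 genes are named in each comparison, with up to 4 genes of each other list by lowest adjusted p-value and, for PAL1 and C4H, the 3 genes with the most similar log2 CPM.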

Additional observations from a re-analysis of the deposited data

Results flagged for a closer look

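For 7 of the 10 genes the effect in spaQ differed from the effect in cop1-4, by the test between the mutants themselves (edgeR's quasi-likelihood test, Benjamini-Hochberg adjusted p, 3 libraries each). On the log2 scale, the effect of spaQ minus that of cop1-4 was 0.82 for PAL1 (adjusted p = 1.14e-05), 0.60 for PAL2 (adjusted p = 7.49e-05) and 0.57 for C4H (adjusted p = 3.3e-05). All spaQ libraries of these genes lay above all cop1-4 libraries. The difference was -1.70 for PAL4 (adjusted p = 8.53e-09), -1.03 for 4CL2 (adjusted p = 5.34e-06), -0.77 for 4CL1 (adjusted p = 0.000115) and -0.54 for HCT (adjusted p = 3.21e-05), with all spaQ libraries below all cop1-4 libraries. These 7 stand against 47.5% of all genes tested that differed between the mutants.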

How the results depend on the processing

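The numbers of the 10 genes called higher and lower stayed within 1.5 times their values in all 84 recomputations. Of 420 recomputed log2 fold changes of these genes, 411 kept their direction and their side of the threshold. Some of these fits left out a library of the genotype not compared, which hardly moves a fold change. Those fits could test only the call. With library totals in place of TMM, 4760 genes were called higher and 11171 lower in spaQ relative to Col-0, and 4080 higher and 10227 lower in cop1-4, against 7386 and 7492 in spaQ and 6612 and 6297 in cop1-4 with TMM. The 10 genes were then split 3 higher to 7 lower in spaQ and 2 to 8 in cop1-4, with medians of -1.05 and -1.38. The same scaling turned C4H in spaQ to -0.32, PAL2 in cop1-4 to -0.22 and PAL3 between spaQ and cop1-4 to -0.00, since it lowers all values of a comparison by about the same amount. PAL3 between the mutants ranged from -0.01 (without cop1-4 replicate 3) to 0.18 (without cop1-4 replicate 1), and the cause was not tested. CCoAOMT1 between the mutants passed the threshold under 5 of 14 alternatives, listed beside its value. With plain counts the PAL1 share in Col-0 was 49.98%, against 49.53% per coding length, and the other plain-count shares moved by less than 1 SD. Leaving out 1 of 3 libraries cannot move a mean by 1 SD, so those recomputed shares could not fail this check. Samples with the same replicate number deviated together only weakly or in opposite directions (r from -0.149 to 0.163), so the numbers do not pair the libraries, and with the replicate block 7322 genes were called higher and 7409 lower in spaQ and 6530 and 6197 in cop1-4, with the calls of the 10 genes as before. Low counts limit PAL3 in Col-0 (153 to 176 reads per library), PAL4 in spaQ (136 to 188) and regulators such as VND6, VND7 and MYB63.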
